A study of Mus musculus with 4 samples.

Results

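The contacts that each autosome makes with itself, set against the contacts it makes with the other autosomes, were read from Hi-C libraries of mouse embryonic stem cells. The deposited table counts read pairs for 231 pairings of chromosomes, of which 21 are cis (a chromosome with itself) and 171 join different autosomes. The 19 cis counts of chromosomes 1 to 19 were taken out of these 21 by chromosome number alone. For each autosome, its cis pairs were divided by its trans pairs with the 18 other autosomes, which gives the cis-to-trans ratio. A high ratio means that a chromosome kept mostly to itself, and a low ratio means that it met other chromosomes more often.

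All cells were E14, a single male embryonic stem cell line, and all media held LIF, the cytokine that keeps these cells self-renewing. One group grew in serum with LIF. The other had spent 14 days in 2i with LIF, a medium with PD0325901 at 1 μM, which inhibits MEK, and CHIR99021 at 3 μM, which inhibits GSK3. There were 2 biological replicates in each medium, made into in situ Hi-C libraries with DpnII, and after removal of duplicates they held 123275426 and 340643083 read pairs in serum and 435928775 and 241677493 in 2i.

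In the interphase nucleus each chromosome occupies a limited volume, its territory, so most ligated ends come from the same chromosome. Trans contacts form where territories touch or intermingle and where chromatin loops out of its own territory. Small, gene-rich chromosomes tend to lie near the nuclear centre in many mammalian cells, and large, gene-poor ones nearer the lamina. Trans pairs in Hi-C also include ends joined at random during ligation, and cis pairs include short fragments that were never cut apart and rejoined.

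Summed over the autosomes, cis pairs outnumbered trans pairs severalfold in both media, and 1 of the 4 libraries stood apart. With every trans pair counted once, the autosomal cis-to-trans ratio of the serum replicates was 6.41 and 6.42, while 2i replicate 1 had 4.38 and 2i replicate 2 had 6.63. The serum libraries were thus almost alike, and the 2i libraries lay on either side of them. Serum averaged 6.41 ± 0.00905 (SD, n = 2) and 2i averaged 5.50 ± 1.59 (SD, n = 2), a log2 difference of -0.25 that did not exceed the spread of the 2i libraries (two-sided exact permutation test, p = 1, where 2 libraries against 2 allow no p below 0.333). Without 2i replicate 1 the difference turned to 0.048, and without 2i replicate 2 it was -0.55.

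The library with the low ratio also had the most short cis pairs, since 35.1% of the cis pairs of 2i replicate 1 were under 1 kb apart, compared with 20.6% for 2i replicate 2 and 10.7% and 14.6% for the serum replicates. Such pairs add to cis, so the ratio was also scaled to cis pairs at 20 kb or more. For this it was multiplied by their share among all cis pairs of the library, X and Y included. The scaled ratio was 4.92 and 4.61 in the serum replicates and 2.41 and 4.37 in the 2i replicates. By this scaled ratio the 2i libraries were both lower than either serum library. The log2 difference was -0.56 (two-sided exact permutation test, p = 0.333, the smallest possible), or -0.13 without 2i replicate 1 and -0.98 without 2i replicate 2. The part that short pairs play in the ratio of single chromosomes was not tested, because the deposited counts by distance are not split by chromosome.

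Chromosome by chromosome, the libraries shared nearly the same order, with the longest autosome the most self-contained and the shortest the most mixed. A trans pair counts at both of its chromosomes here, so the values lie well below the library ratios. Chromosome 1, the longest autosome at 197 Mb, had 3.86 and 3.76 cis pairs per trans pair in serum and 2.56 and 3.86 in 2i. Chromosome 19, the shortest at 61.3 Mb, had 2.44 and 2.51 in serum and 1.65 and 2.59 in 2i. These were the highest and the lowest autosome in each of the 4 libraries, and their quotient was 1.59 and 1.50 for serum and 1.55 and 1.49 for 2i. The median autosome had 3.17 and 3.19 in serum and 2.21 and 3.29 in 2i. Next to chromosome 1 came chromosome 3, with 3.67 and 3.56 in serum and 2.43 and 3.68 in 2i. Next to chromosome 19 came chromosome 17, with 2.70 and 2.72 in serum and 1.91 and 2.87 in 2i. The 2i replicate 1 value was the lowest of the 4 libraries at all 19 autosomes, while 2i replicate 2 exceeded both serum libraries at 18 of them, with chromosome 1 as the exception.

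To compare the order between libraries, the log2 ratio of each autosome was taken relative to its library, by dividing its share of autosomal cis pairs by its share of autosomal trans ends. This relative ratio varied with an SD of 0.14 between autosomes, compared with a pooled SD of 0.021 between replicates. The scaling takes out the difference in level between libraries. Unscaled, the autosomal log2 ratio was 2.13 for 2i replicate 1 and 2.68 to 2.73 for the other libraries. Across the autosomes of a library, the unscaled log2 ratio had an SD of 0.13 to 0.15. Across the 19 autosomes, which share their libraries and are not independent replicates, the relative ratios of any 2 libraries correlated with r from 0.963 to 0.989 and rho of 0.946 or more. In all 4 libraries, 8 autosomes held the same rank: chromosomes 1, 2, 3, 6, 10, 15, 17 and 19. The mean relative ratio ran from 0.24 for chromosome 1 and 0.16 for chromosome 3 through 0.14 for chromosome 2, 0.098 for chromosome 6 and 0.061 for chromosome 10 to -0.22 for chromosome 17 and -0.38 for chromosome 19. The middle of the order was crowded, with chromosomes 8, 7 and 5 at 0.020, 0.020 and 0.016 and chromosomes 4, 14 and 12 at -0.018, -0.022 and -0.029, and within each of these trios neighbours changed places between libraries. Chromosomes 18, 11 and 16 were likewise not kept apart by all libraries, at -0.13 each. Chromosomes 9, 13 and 16, named for completeness after their values were seen, had means of -0.051, -0.0029 and -0.13.

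Chromosome length went with this order in every library. Pearson's r between length and the log2 ratio was 0.909 and 0.933 for serum and 0.903 and 0.897 for 2i, with Spearman's rho between 0.854 and 0.897 (n = 19 autosomes of the same library in each case). Without chromosomes 1 and 19, the farthest from the median length, r was still 0.808 to 0.878. For every 10 Mb of length, the log2 ratio rose by 0.042 and 0.039 in the serum replicates and by 0.041 and 0.036 in the 2i replicates. Slopes averaged 0.041 ± 0.0025 (SD, n = 2) for serum and 0.038 ± 0.0035 (SD, n = 2) for 2i, and their difference of -0.0026 was within the spread between replicates (two-sided exact permutation test, p = 0.667). It ran from -0.0051 without 2i replicate 1 to -0.00010 without 2i replicate 2, and summed counts gave -0.00064.

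The relation with length came from the trans contacts rather than from the cis contacts. Cis pairs per sequenced Mb showed little relation to length, with r between -0.110 and 0.203, whereas trans pairs per sequenced Mb were denser on short chromosomes, with r between -0.768 and -0.629, or between -0.596 and -0.403 without chromosomes 1 and 19. Relative to the mean of the autosomes, chromosome 19 had a trans density of 1.31 and 1.35 for serum and 1.42 and 1.35 for 2i, and chromosome 1 had 0.848 and 0.837 in serum and 0.829 and 0.831 in 2i. The cis density of chromosome 19 was 0.993 and 1.05 for serum and 1.07 and 1.06 for 2i, and that of chromosome 1 was 1.02 and 0.982 in serum and 0.968 in both 2i libraries. Per unit of sequence, then, the shortest and the longest autosome were alike in cis and far apart in trans.

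The same holds when counts are fitted as a power of chromosome length. Cis pairs grew with an exponent of 1.05 and 0.990 in serum and 0.976 and 0.978 in 2i, close to proportional. Trans pairs grew with an exponent of 0.692 and 0.662 in serum and 0.628 and 0.676 in 2i. A long chromosome has fewer partners outside itself, and joining by length alone would give a trans exponent of 0.949, so the measured growth was slower than that. The cis exponent was lower in either 2i library than in the serum libraries (two-sided exact permutation test, p = 0.333, the smallest possible), and the trans exponents of the media overlapped (p = 0.667 from the same exact permutation test).

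Random joining of all autosomal pair ends sets a ceiling on mixing, since it would place 92.2% of the ends of chromosome 1 and 97.4% of those of chromosome 19 in trans pairs on average over the serum libraries. The observed trans pairs of chromosome 1 were 12.5% and 12.7% of this random number in serum and 17.7% and 12.4% in 2i. For chromosome 19 they were 17.5% and 17.1% for serum and 23.9% and 16.6% for 2i. Every autosome thus stayed far below random mixing in all 4 libraries, and short ones came closer to it. Across autosomes the log2 of this index fell with length, with r between -0.898 and -0.837 (n = 19).

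GC content went with lower ratios, more loosely than length did. The correlation of the log2 ratio with the GC content of sequenced bases was -0.517 and -0.393 for serum and -0.421 and -0.494 for 2i (n = 19 autosomes of the same library), with rho from -0.454 to -0.332, and r weakened to between -0.397 and -0.271 without chromosomes 11 and 3, the farthest from the median GC content. Per percentage point of GC, the log2 ratio changed by -0.080 ± 0.022 (SD, n = 2) for serum and by -0.076 ± 0.0018 (SD, n = 2) for 2i (two-sided exact permutation test of the difference, p = 1). With length in the same fit, the mean over the libraries went from -0.078 to -0.050. The 2i minus serum difference of 0.0040 turned to -0.0021 without chromosomes 11 and 3.

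Gene density also went with lower ratios, and it correlated with GC content across the autosomes (r = 0.852). Their separate parts in the relation were not tested. Per protein-coding gene per Mb, the log2 ratio changed by -0.024 ± 0.0061 (SD, n = 2) for serum and by -0.022 ± 0.00041 (SD, n = 2) for 2i (two-sided exact permutation test of the difference, p = 1), with r between -0.441 and -0.343 and rho between -0.288 and -0.146. With all annotated genes in place of coding ones, r was weaker, between -0.247 and -0.159. Chromosome 7, the most gene-dense autosome with 13.6 coding genes per Mb, had ratios of 3.22 and 3.29 for serum and 2.22 and 3.35 for 2i. Chromosome 18, the least gene-dense with 5.70 per Mb, had 2.95 and 2.94 in serum and 1.95 and 3.08 in 2i. Chromosomes 7 and 18 were therefore in the opposite order to the overall trend, and chromosome 18 is also much shorter, at 90.8 Mb compared with 152.5 Mb. Chromosome 11 was almost as gene-dense as chromosome 7, also with 13.6 coding genes per Mb. Its ratios, 2.84 and 2.97 for serum and 1.99 and 3.06 for 2i, were above those of chromosome 18 in some libraries and below in others. Without chromosomes 7 and 11, the farthest from the median gene density, r was -0.514 to -0.427.

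Chromosomes of like length show the base composition more directly, in pairs chosen after their values were seen. Chromosomes 3 and 4 are 159.6 and 155.6 Mb long, and chromosome 4, with 42.3% GC compared with 40.5%, had the lower ratio, at 3.17 and 3.19 for serum and 2.17 and 3.22 for 2i. Chromosomes 12 and 11 are 121.3 and 121.8 Mb long, with 41.8% and 43.8% GC and 5.81 and 13.6 coding genes per Mb. Chromosome 12 had ratios of 3.18 and 3.15 for serum and 2.10 and 3.26 for 2i, whereas chromosome 11 had 2.84 and 2.97 in serum and 1.99 and 3.06 in 2i. In both of these pairs the chromosome richer in GC was the more mixed in all 4 libraries. Chromosomes 5 and 7, almost equal in length, did not follow this. Chromosome 5, with 42.5% GC compared with 43.0% and 8.58 coding genes per Mb, had ratios of 3.23 and 3.27 for serum and 2.22 and 3.33 for 2i, close to those of chromosome 7 and below them in 3 of the 4 libraries. Over all 20 pairs of autosomes that differ in length by under 5 Mb, a limit also chosen after the values were seen, the one richer in GC had the lower ratio in all 4 libraries in 11 pairs and the higher ratio in all 4 in 3 pairs, and 6 pairs differed between libraries. The pairs share chromosomes, and just beyond this limit chromosome 15, richer in GC than 16, had the higher ratio in all 4 libraries.

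Of the other sequence features, CpG density had r between -0.660 and -0.560 with the log2 ratio and rho between -0.539 and -0.416. With trans density it had r between 0.818 and 0.878, and with cis density r between 0.456 and 0.844. CpG density itself correlated with GC content (r = 0.891) and with length (r = -0.398), so its own share in the relation was not tested. The density of GATC, the site that DpnII cuts, had r between 0.229 and 0.302 with the log2 ratio. The unsequenced share of a chromosome had r between -0.389 and -0.338 and rho between -0.511 and -0.437. Without chromosomes 7 and 8, which have the largest unsequenced shares at 6.98% and 5.27%, r was between -0.811 and -0.759. This share itself correlated with length (r = -0.303, rho = -0.544), so its own part in the relation was not tested either.

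Length and GC content together described most of the variation between autosomes. A fit on both left residuals with an SD between 0.034 and 0.051 on the log2 scale and covered 95.1% and 92.0% of the variance in serum and 88.0% and 91.4% in 2i, compared with 82.7% and 87.1% in serum and 81.5% and 80.5% in 2i for length alone. On the mean of the 4 libraries, chromosome 8 lay farthest above the fit, by 0.031 and 0.043 in serum and 0.11 and 0.046 in 2i. Chromosome 10 followed, by 0.042 and 0.040 in serum and 0.078 and 0.066 in 2i. The lead of chromosome 8 comes from 2i replicate 1 alone, as chromosome 10 was highest in serum replicate 1 and 2i replicate 2 and chromosome 9 in serum replicate 2. Both were more self-contained than their length and GC content gave in all 4 libraries. On the same mean chromosome 4 lay farthest below, at -0.065 and -0.066 for serum and -0.073 and -0.086 for 2i, followed by chromosome 19 at -0.046 and -0.049 for serum and -0.085 and -0.065 for 2i. The trend was fitted to the same 19 autosomes, so these departures are a description of them.

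For 2i against serum, the cis-to-trans ratio of single autosomes gave no call. The fitted log2 change ran from -0.28 for chromosome 1 to -0.20 for chromosome 14, each with an SE of 0.30. By edgeR's quasi-likelihood test and Benjamini-Hochberg adjustment over 21 chromosomes, 0 of the 19 autosomes passed, compared with 0% of all chromosomes tested. At an unadjusted p under 0.05 the count was 0 as well, and DESeq2 and limma called 0. The cis pairs of every chromosome were also scaled by the share at 20 kb or more of the whole library, which shifts all chromosomes alike. The changes then ran from -0.58 to -0.51, and 0 were called. The larger size repeats the library value and is not a measure of single chromosomes. With all cis pairs, the direction rests on 2i replicate 1. Without it, the autosomal difference was 0.048, or -0.13 with cis pairs at 20 kb or more. The fitted changes of the autosomes then ran from 0.018 to 0.086, whereas without 2i replicate 2 they ran from -0.59 to -0.47. Each of these fits leaves 1 2i library, so its calls would rest on the spread between the serum replicates alone.

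Relative to its library, each autosome kept nearly the same ratio in 2i as in serum. The change of the relative log2 ratio ran from -0.028 to 0.050 with an SD of 0.025 across autosomes, 8 of them above 0 and 11 below, which is of the size of the spread between replicates. The 2i libraries were both higher than either serum library at 5 autosomes, chromosomes 8, 10, 14, 15 and 17, compared with 23.8% of all 21 chromosomes. At chromosome 8 the margin was slight, with 0.0103 for 2i replicate 2 and 0.0102 for serum replicate 2. The 2i libraries were both lower at chromosome 1 alone, compared with 4.76%. Since the autosomes are 19 of those 21, these shares describe nearly the same set.

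Chromosome 14 had the largest upward difference, with relative log2 ratios of -0.051 and -0.042 for serum and 0.015 and -0.0085 for 2i. The change was 0.050 with an SE of 0.023 (adjusted p = 0.598, edgeR's quasi-likelihood test). Chromosome 8 came next, at -0.016 and 0.010 for serum and 0.077 and 0.010 for 2i, a change of 0.046 with an SE of 0.027 (adjusted p = 0.598, edgeR's quasi-likelihood test). The chromosome 8 value stems from 2i replicate 1, as 2i replicate 2 was level with serum replicate 2, and without 2i replicate 1 the change was 0.013. Downward, chromosome 1 stood at 0.27 and 0.23 in serum and at 0.22 in both 2i libraries, a change of -0.028 with an SE of 0.024 (adjusted p = 0.684, edgeR's quasi-likelihood test). That change was -0.0079 without serum replicate 1 and -0.048 without serum replicate 2, whose values lie farther apart than the media do. Chromosome 12 followed, at -0.0087 and -0.026 for serum and -0.058 and -0.025 for 2i, and its groups overlapped. Its change was -0.024, or -0.0072 without 2i replicate 1. Chromosomes 9 and 3 lay close behind it, at -0.023 each.

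By edgeR's quasi-likelihood test and Benjamini-Hochberg adjustment, 0 of the 19 autosomes were called for the relative ratio, compared with 0% of the 21 chromosomes tested, and chromosome 14 was the 1 with an unadjusted p under 0.05. The call depended on the tool. With limma 0 were called, and with DESeq2 3 were called, chromosomes 10, 14 and 17, all higher in 2i (log2 change 0.034, 0.050 and 0.038). Without 2i replicate 2, which leaves 1 2i library, the change at Y was 0.19 compared with 0.097 in the main fit. The sizes depended on the scaling. With TMM normalization in place of the autosomal totals, the changes were 0.032 for chromosome 14, 0.029 for 8, 0.017 for 10, 0.020 for 17 and 0.014 for 15. The largest change among the autosomes on that scale was -0.046 for chromosome 1. Falls of -0.042 for chromosome 12, -0.041 for 9, -0.040 for 3 and -0.033 for 4 also exceeded the largest rise, and edgeR called 0.

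Taken apart into its parts, this near-constant ratio hides shifts in both counts. From serum to 2i, the share of all autosomal cis pairs that fell on a given chromosome changed with an SD of 0.052 on the log2 scale, and its share of trans ends with an SD of 0.054, while their ratio changed with an SD of 0.025. Of the 19 autosomes, 15 had cis shares and 16 had trans shares that did not overlap between the media, compared with 81% and 85.7% of all 21 chromosomes. Both shares moved in the same direction at 16 autosomes (r = 0.890, rho = 0.867, n = 19), with chromosomes 2, 8 and 15 as the exceptions. On chromosome 11 the log2 change was 0.11 for the cis share and 0.096 for the trans share, on chromosome 3 it was -0.098 and -0.075, and on chromosome 14 it was -0.060 and -0.11. The chromosomes whose share moved most thus carried cis and trans contacts along together. For chromosome 14 the larger loss in trans left a higher ratio. The serum replicates also lay apart in these shares. Chromosome 11 held 5.55% and 5.92% of autosomal cis pairs in serum and 6.13% and 6.28% in 2i. Chromosome 3 held 6.46% and 6.13% in serum and 5.81% and 5.94% in 2i.

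The shifts of both shares followed GC content, and their size, like the direction for the ratio, depended on the serum library used. Across autosomes, the 2i minus serum change correlated with GC content at r = 0.947 for the cis share and 0.854 for the trans share, but at 0.135 for the relative ratio (n = 19). Per percentage point of GC, the log2 cis density rose by 0.033 and 0.085 in the serum replicates and by 0.12 and 0.11 in the 2i replicates, and the log2 trans density by 0.13 and 0.15 in the serum replicates and by 0.20 and 0.19 in the 2i replicates. The slope of the 2i minus serum change of the ratio, 0.0040 per percentage point of GC, was -0.011 without serum replicate 1 and 0.019 without serum replicate 2. Between the serum replicates, serum replicate 2 minus serum replicate 1, the correlations with GC content were 0.930 for the cis share, 0.707 for the trans share and 0.858 for the ratio, and between the 2i replicates, 2i replicate 2 minus 2i replicate 1, they were -0.208, -0.095 and -0.067. The serum libraries enter both the 2i minus serum and the within-serum values, so these are not independent. Serum replicate 1 also had 55.4% duplicates among its mapped pairs, compared with 19.3% in serum replicate 2 and 16.9% and 23.2% in 2i, and the part of this in the within-serum trend was not tested.

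Chromosomes 12, 15, 16, 18 and 19 were taken as a list because they carry ribosomal gene arrays in mouse strains, which gather in nucleoli and can bring different chromosomes together. Which of them carry active arrays in E14 was not measured. All 5 had a mean relative ratio below 0, as had 11 of all 19 autosomes, with a median of -0.13 compared with -0.018 over all 19 autosomes. They are also short, with a median length of 98.3 Mb compared with 125.2 Mb. Once length and GC content were fitted, the mean residuals of the list went both ways, from -0.062 for chromosome 19 to 0.035 for chromosome 15, with 2 of 5 below 0 compared with 8 of all 19. The median change from serum to 2i was -0.0043 for the list, with 2 members above 0 and 3 below, and -0.00083 over all autosomes.

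Chromosomes that hold developmental loci examined in the study were spread over the order. Chromosomes 2, 6, 11 and 15 carry the Hoxd, Hoxa, Hoxb and Hoxc clusters, which pattern the body axis, and chromosome 5 carries Shh, a signalling ligand of limb and neural development. Chromosome 2 had ratios of 3.56 and 3.51 for serum and 2.40 and 3.63 for 2i, and chromosome 6 had 3.43 in both serum libraries and 2.36 and 3.52 in 2i. Chromosome 15 had 2.96 and 3.01 in serum and 2.08 and 3.16 in 2i. The Hox-bearing chromosomes thus ranged from the third rank in the order (chromosome 2) to among the lowest (chromosome 11). The change of the relative log2 ratio was -0.0097 for chromosome 2, -0.0061 for chromosome 5, -4.0e-05 for chromosome 6, 0.018 for chromosome 11 and 0.031 for chromosome 15. With a library left out, this change turned sign at chromosomes 2, 5, 6 and 11, but not at chromosome 15. In 1 of these 5, chromosome 15, both 2i values lay on the same side of both serum values, all above. Among all 21 chromosomes, 23.8% had both above.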

How the data were processed

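The authors mapped read pairs to the mm9 build with distiller, took out duplicate pairs, those whose coordinates match exactly, and deposited counts of unique read pairs for each pair of chromosomes and each library, without normalization. The methods of the study leave out pairs of low mapping quality, but do not state whether that was done before these counts were made. Checks showed that chromosome pairs add up to the unique pairs in all 4 libraries and that the deposited sums per medium equal the sums of their replicates.

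Ratios, shares and slopes were computed from these counts. Counts per autosome ran from 2484150 to 27030506 for cis and from 1019622 to 11274983 for trans pairs. For the autosomes, 95% Wilson intervals on the trans share have a half-width of 0.0476 percentage points or less. They cover counting error only. Lengths, GC content, GATC and CpG sites came from NCBIM37, the assembly of mm9, and genes from its GENCODE annotation. That sequence marks no repeats, so the planned repeat share was left out.

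The ratio was tested with edgeR 4.0.16 on the cis and trans counts of 21 chromosomes, with library as a block, unique pairs as library size and a common dispersion. The relative ratio used autosomal cis and trans totals as library sizes. DESeq2 1.42.0 and limma 3.58.1 were alternatives. The edgeR test of the relative ratio was tried on simulated data with known changes, and it missed most changes of the largest size seen among the autosomes. SEs were derived from the test's F value. Library values were compared by two-sided exact permutation over 6 assignments. Correlations across autosomes are descriptions without p. R 4.3.3, Python 3.11.15, numpy 2.4.6 and pandas 2.3.3 were used.

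The members, lists and tests were chosen with earlier results of these data known. Chromosomes named with all values were the 2 highest and 2 lowest in serum, the longest, shortest, most and least gene-dense, the 2 largest changes of the relative ratio in each direction, those with loci of the study (2, 5, 6, 11 and 15), and the 2 largest residuals in each direction.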

Additional observations from a re-analysis of the deposited data

How the results depend on the processing

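Alternatives were set with the design, except the crossed block, which was chosen after seeing the data. With 2 libraries in each medium, exact permutation cannot pass a threshold of 0.05, so the alternatives of the library ratio and of the slopes bear on their size and direction alone. Counting error is small at this depth, and the number of libraries limits the exact permutation tests. Cis counts of single chromosomes include pairs under 1 kb, and the trans counts include any pairs ligated at random.

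The slope on length, 0.039 per 10 Mb over the libraries, was 0.033 with trans pairs divided by the length of the partner autosomes, 0.027 for observed over randomly joined trans pairs with the sign turned, and 0.034 without the 2 autosomes farthest from the median. The slope on GC content, -0.078, was -0.050 with length in the same fit. The slope on gene density, -0.023, was -0.039 without the 2 farthest autosomes and -0.0069 per annotated gene of any kind, where the correlation was weaker too. The 2i minus serum difference in the slope on GC content, 0.0040, turned to -0.0032 with summed counts and -0.0021 without the 2 farthest autosomes. The cause was not tested.

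Of 21 chromosomes, edgeR called 0 for the relative ratio and DESeq2 3. With the replicate number as a block, edgeR called 0 for both the ratio and the relative ratio, and the block changed no call. Same-numbered libraries deviated from their group means with r = -0.139 across the autosomes and -0.619 across all 21 chromosomes, and crossed pairing also gave 0 calls for both.

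With each library left out in turn (a lone library is then assumed to vary like the others), the difference of the autosomal log2 ratio ran from -0.55 to 0.048, that of the slope on length from -0.0051 to -0.00010, on GC content from -0.011 to 0.019 and on gene density from -0.0024 to 0.0061. Mean slopes ran from 0.038 to 0.041 for length, -0.085 to -0.070 for GC content and -0.025 to -0.021 for gene density. Calls are not compared here, since a fit with a lone library in a medium takes its spread from the other medium alone. The change of the relative ratio turned sign at chromosome 2 (-0.022 to 0.0026), 3 (-0.047 to 0.0016), 5 (-0.014 to 0.0016), 6 (-0.0095 to 0.0094), 7 (-0.015 to 0.013), 11 (-0.012 to 0.047), 13 (-0.00020 to 0.021), 16 (-0.029 to 0.032), 18 (-0.043 to 0.018) and 19 (-0.031 to 0.023). With X and Y among the trans partners, it turned to 0.00021 at chromosome 7 and -8.4e-05 at 16, and with TMM to -0.0072 at 13 and -0.016 at 16. Apart from left-out libraries and a filter of at least 10 counts, which removed no chromosome, 145 of 152 alternatives for the 19 autosomes kept direction and side of the threshold, the rest being these 4 and the 3 DESeq2 calls. Among these alternatives, DESeq2, limma, both blocks and the fit on autosomes alone estimate nearly the same change as the main fit. Their direction was thus fixed in advance, and only their calls could differ.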

Other observations

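The sex chromosomes of this male line, each present once per cell, were measured in the same way against the 19 autosomes. Chromosome X, at 166.7 Mb, had 3.28 and 3.12 cis pairs per trans pair in serum and 2.07 and 3.30 in 2i. Its relative log2 ratio stood at 0.035 and -0.039 for serum and -0.079 and -0.0071 for 2i. Of 2 autosomes of like length, chromosome 4 was close to it and chromosome 3 well above it, since the mean over the 4 libraries was -0.022 for X, -0.018 for chromosome 4 and 0.16 for chromosome 3. Trans density on X was 0.420 and 0.411 times the autosomal mean in serum and 0.379 and 0.389 times in 2i, while its cis density was 0.431 and 0.400 times in serum and 0.358 and 0.387 times in 2i. Cis and trans on X were thus lower together, and its ratio lay among those of the autosomes. Chromosome Y had 0.831 and 0.897 cis pairs per trans pair in serum and 0.671 and 0.896 in 2i, below each autosome in each library, but 83.0% of Y is unsequenced in this assembly, so its counts describe a small part of it.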
